A study of Mus musculus with 24 samples.

Results

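The mural cell genes of the mouse hypothalamus described here are Pdgfrb, Rgs5, Notch3, Abcc9, Vtn, Anpep, Acta2, Tagln and Myh11. They are 9 of the 55471 genes counted by RNA sequencing, and all 9 are among the 18992 genes that passed the expression filter. They were matched by Ensembl identifier to a list of pericyte and smooth muscle genes that was selected on measured values, namely a lower mean in overfed mice on day 14. The libraries came from 24 male C57BL6/J mice aged 18 weeks, 1 mouse per library, in 4 groups of 6. Mice with experimental overfeeding (ExpOF) received a sucrose-supplemented liquid diet through a gastric catheter, raised stepwise to 150% of baseline energy, and control mice received sterile water at matched flow rates. The d14 groups were sampled at the end of the infusion on day 14, and the d14+3 groups on day 17, when both had been on a low flow of sterile water. The mice were killed in a July or a September cohort, and every group held animals of both. The comparison of ExpOF with control mice asks how hypothalamic transcripts differ during overfeeding and in the days of recovery after it.

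Pericytes and vascular smooth muscle cells, together called mural cells, wrap the endothelial tube of brain vessels. Pericytes sit on capillaries within the basement membrane and maintain the blood-brain barrier, and smooth muscle cells ring arterioles and set their diameter. Endothelial PDGF-B recruits mural cells through the receptor PDGFRB, and endothelial Notch ligands act on NOTCH3 in the same cells. Whole hypothalamus was sequenced, so fewer mural cells and less RNA per mural cell cannot be told apart.

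Total counts per library ran from 8928182 to 34848437. The hypothalamic neuropeptide transcripts Oxt, Hcrt, Pmch, Trh and Avp were present in every library used, and Avp, the lowest of them, ranged from 33.3 to 200 CPM, that is, counts per 1000000 counts assigned to genes. Control d14 replicate 4 was left out because the study removed that mouse for poor RNA quality. The RNA integrity number (RIN) in its label is 9.8. All values are therefore over 23 libraries, with 5 in Control d14 and 6 in each other group, unless 24 are named. Libraries of a group were compared in pairs and none was deposited in duplicate (lowest chi-square statistic per degree of freedom 2.85). The RIN was 9.20 ± 0.86 (SD, n = 5) in Control d14, 9.75 ± 0.138 (SD, n = 6) in ExpOF d14, 8.62 ± 1.09 (SD, n = 6) in Control d14+3 and 9.43 ± 0.45 (SD, n = 6) in ExpOF d14+3. Its part in the results was not tested apart from the slopes and the covariate given with the results.

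Levels below are CPM after TMM scaling of the raw counts, and comparisons between genes use CPM per kilobase of the gene length in the count file. Per length, Vtn was the most abundant of the 9 genes at 33.4 CPM per kb, followed by Rgs5 at 19.8. Pdgfrb at 5.66, Acta2 at 4.63 and Notch3 at 3.97 CPM per kb formed the middle. Abcc9 at 1.24, Myh11 at 1.15, Anpep at 0.773 and Tagln at 0.515 CPM per kb were the least abundant. The counts behind these means ran from 743 to 3146 per library for Rgs5, but from 5 to 51 for Tagln. At its lowest count, counting error alone gives Tagln a coefficient of variation of 44.7%, against 3.67% for Rgs5, and these figures cover counting error only.

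Rgs5, a regulator of G-protein signaling that marks brain pericytes, was the steadiest member. Its mean was 89.5 ± 2.37 CPM (SD, n = 5) in Control d14, 89.6 ± 5.14 CPM (SD, n = 6) in ExpOF d14, 90.3 ± 3.89 CPM (SD, n = 6) in Control d14+3 and 91.3 ± 8.01 CPM (SD, n = 6) in ExpOF d14+3. The 4 groups overlapped over most of their ranges, and no gap between neighboring group means reached the SD. The d14+3 log2 fold change of ExpOF over control was 0.016 with a 95% interval from -0.095 to 0.127 (edgeR quasi-likelihood test, adjusted p = 0.942). Rgs5 lies on chromosome 1 of mm10 from 169655501 to 169695813 on the plus strand and overlaps no other annotated gene.

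Vtn encodes vitronectin, an adhesive glycoprotein that brain pericytes secrete. In Control d14 it was at 67.4, 80.7, 66.2, 85.0 and 79.3 CPM, and in ExpOF d14 it ranged from 53.7 to 68.3 CPM with a median of 59.3. The overlap was small: the highest ExpOF d14 library lay above the 2 lowest control libraries. Control d14 averaged 75.7 ± 8.4 CPM (SD, n = 5) against 59.6 ± 5.4 CPM (SD, n = 6) in ExpOF d14. The log2 difference of -0.34 helped to choose the gene and has no test. On d14+3, Vtn was at 60.3 to 86.1 CPM in control mice (median 70.3) and at 50.3 to 80.3 CPM in ExpOF mice (median 64.8). The control mean was 72.2 ± 10.3 CPM and the ExpOF mean 65.0 ± 9.85 CPM (SD, n = 6 each), and the ranges overlapped widely. This d14+3 log2 fold change was -0.155, with a 95% interval from -0.358 to 0.049 (edgeR, adjusted p = 0.768). Vtn lies on chromosome 11 from 78499091 to 78502324 on the plus strand and shares no exon bases with another gene.

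Acta2, the smooth muscle α-actin of the contractile apparatus, was at 12.7, 11.9, 12.4, 10.5 and 11.5 CPM in Control d14. In ExpOF d14 it ranged from 8.01 to 10.8 CPM with a median of 8.98. The 2 highest ExpOF libraries were at 10.8 and 10.4 CPM, and the first of them lay above the lowest control library. Control d14 averaged 11.8 ± 0.84 CPM (SD, n = 5), and ExpOF d14 averaged 9.23 ± 1.21 CPM (SD, n = 6). Their log2 difference of -0.36 helped to choose the gene and has no test. On d14+3 the order of the means was the other way, with 9.79 ± 1.76 CPM in control and 10.2 ± 1.37 CPM in ExpOF mice (SD, n = 6 each). The log2 fold change there was 0.05 with a 95% interval from -0.18 to 0.28 (edgeR, adjusted p = 0.903). Ordered by mean, ExpOF d14 was lowest, then Control d14+3, ExpOF d14+3 and Control d14, and the top step of 1.63 CPM was the only gap between neighboring groups, for any of the 9 genes, that exceeded the larger of the 2 SDs. Acta2 lies on chromosome 19 from 34241090 to 34255590 on the minus strand with no overlapping gene.

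Abcc9 encodes SUR2, the sulfonylurea receptor subunit that pairs with Kir6.1 in the KATP channel of mural cells. Its mean was not lower in ExpOF mice on d14 over both cohorts, with log2 differences of 0.148 in all, 0.248 in July mice alone and -0.031 in September mice alone. It was at 13.9, 7.86, 9.76, 9.65 and 7.70 CPM in Control d14 and between 9.35 and 11.9 CPM in ExpOF d14 (median 11). Thus 1 control library lay above all the ExpOF libraries, and those at 7.86 and 7.70 CPM lay below all of them. The Control d14 mean was 9.77 ± 2.5 CPM (SD, n = 5) and the ExpOF d14 mean 10.7 ± 0.989 CPM (SD, n = 6). In Control d14+3 it ranged from 4.95 to 11.9 CPM (median 10.2) and in ExpOF d14+3 from 8.31 to 12.9 CPM (median 12). That d14+3 log2 fold change was 0.27 with a 95% interval from -0.05 to 0.60 (edgeR, adjusted p = 0.755), and it was 0.14 without the lowest library, Control d14+3 replicate 3. The gene spans chromosome 6 from 142587862 to 142702218 on the minus strand, and 158 of its 8373 exon bases are shared with 5330439B14Rik on the opposite strand.

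Promoter sequences are shown for Acta2 and Vtn, which had lower means in ExpOF d14, and for Abcc9, which did not. Promoters of 300 bases (250 before the start and 50 after), from RefSeq on GRCm38.p6, were used for 6 of the 9 genes. These were Rgs5, Notch3, Abcc9, Vtn, Anpep and Acta2. Promoters of Pdgfrb, Tagln and Myh11 were not among the sequences used, which does not mean that RefSeq lacks them. Capitals mark exact matches, on either strand, to TGGGAA, the core of the site of RBPJ, through which Notch receptors act, and to CATTCC, the MCAT element of TEAD factors in smooth muscle genes. The Acta2 promoter is chr19:34255324-34255623 on the minus strand, the Vtn promoter chr11:78498870-78499169 on the plus strand and the Abcc9 promoter chr6:142702225-142702524 on the minus strand.
Acta2: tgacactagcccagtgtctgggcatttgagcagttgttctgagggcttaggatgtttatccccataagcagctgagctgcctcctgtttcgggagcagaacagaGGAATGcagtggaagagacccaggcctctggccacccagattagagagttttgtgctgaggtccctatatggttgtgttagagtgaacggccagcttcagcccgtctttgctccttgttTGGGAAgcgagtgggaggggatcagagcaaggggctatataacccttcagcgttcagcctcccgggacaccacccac
Vtn: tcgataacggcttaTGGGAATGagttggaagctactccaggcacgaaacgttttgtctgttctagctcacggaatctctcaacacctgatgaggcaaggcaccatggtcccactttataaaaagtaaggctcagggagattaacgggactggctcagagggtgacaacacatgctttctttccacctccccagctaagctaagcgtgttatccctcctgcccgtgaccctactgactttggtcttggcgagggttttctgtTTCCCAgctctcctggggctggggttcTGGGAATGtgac
Abcc9: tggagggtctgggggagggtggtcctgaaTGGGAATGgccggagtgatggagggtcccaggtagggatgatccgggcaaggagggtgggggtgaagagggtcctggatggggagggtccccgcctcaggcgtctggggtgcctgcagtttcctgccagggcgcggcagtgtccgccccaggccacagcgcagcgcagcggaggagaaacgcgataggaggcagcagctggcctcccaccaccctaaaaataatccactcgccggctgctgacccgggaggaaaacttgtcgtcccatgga
The Acta2 promoter held an MCAT match 146 bases before the start and an RBPJ core match 27 bases before it. The Vtn promoter held both at 236 and 234 bases before the start, where they overlap as TGGGAATG, and again after the start. The Abcc9 promoter held the same overlapping pair at 221 and 219 bases before the start. Rgs5, Notch3 and Anpep held neither. Among all 32851 promoters of this length, 25.6% held the RBPJ core and 14.7% the MCAT element. The CArG box of serum response factor was searched first in its strict form, CC, then 6 bases that are each A or T, then GG, which was in 0 of the 6 promoters and in 1.63% of all promoters. With 1 of the 6 middle bases allowed to be G or C, a search added after the strict one, the Acta2 promoter held ccctatatgg 84 bases and ccttgtttgg 34 bases before the start. The other 5 held no such match, and 8.5% of all promoters did. These matches describe letters in the window only.

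Tagln encodes transgelin, an actin-binding protein of smooth muscle, and was the least abundant member. Its Control d14 levels were 1.21, 1.24, 0.813, 1.25 and 1.46 CPM, and ExpOF d14 ranged from 0.527 to 1.17 CPM (median 0.835). The control library at 0.813 CPM lay inside the ExpOF range, and the other 4 lay above it. Control d14 averaged 1.20 ± 0.237 CPM (SD, n = 5), and ExpOF d14 0.819 ± 0.256 CPM (SD, n = 6), the largest d14 difference among the 9 genes at -0.52 on the log2 scale, given as a description. On d14+3 the levels ran from 0.721 to 1.85 CPM in control and from 0.44 to 1.51 CPM in ExpOF mice. The d14+3 log2 fold change was -0.32, and its 95% interval from -0.86 to 0.22 was the widest of the 9 (edgeR, adjusted p = 0.783). Tagln lies on chromosome 9 from 45929619 to 45935873 on the minus strand. Of its 1988 exon bases, 1349 are shared with Pcsk7 and Gm48529 on the opposite strand, and whether the counting used strand is not given in the sources used here, so its values are uncertain.

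Myh11, the smooth muscle myosin heavy chain, was at 8.22 to 10.2 CPM in Control d14 and at 6.85 to 9.33 CPM in ExpOF d14. The Control d14 mean was 9.32 ± 0.766 CPM (SD, n = 5), the ExpOF d14 mean was 8.43 ± 0.949 CPM (SD, n = 6), and the log2 difference of -0.15 has no test. On d14+3 the control mean of 8.27 ± 1.5 CPM lay below the ExpOF mean of 8.96 ± 1.1 CPM (SD, n = 6 each). The log2 fold change was 0.12 with a 95% interval from -0.11 to 0.34 (edgeR, adjusted p = 0.794). The gene lies on chromosome 16 from 14194535 to 14291372 on the minus strand and overlaps no other gene.

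Notch3, the Notch receptor of mural cells, was at 33.1, 28.0, 36.2, 29.8 and 30.4 CPM in Control d14 and between 28.2 and 37.7 CPM in ExpOF d14 (median 32.7). The Control d14 mean of 31.5 ± 3.22 CPM (SD, n = 5) lay below the ExpOF d14 mean of 32.9 ± 4.11 CPM (SD, n = 6), by less than either SD. On d14+3 Notch3 ranged from 30.3 to 36.3 CPM in control mice (median 34.3) and from 26.9 to 34.1 CPM in ExpOF mice (median 28.6). Here 4 of the 6 ExpOF libraries lay below the lowest control library, at 26.9, 27.4, 28.2 and 29.1 CPM. The d14+3 mean was 33.9 ± 2.31 CPM in control and 29.9 ± 3.26 CPM in ExpOF mice (SD, n = 6 each). This log2 difference of -0.18, with a 95% interval from -0.35 to -0.01, had the smallest p-value of the 9 members (edgeR, unadjusted p = 0.039) and did not pass adjustment over all genes (adjusted p = 0.688). In July mice alone it was -0.18, and in September mice alone -0.19. Notch3 lies on chromosome 17 from 32120820 to 32166852 on the minus strand and shares 488 of its 8089 exon bases with Gm17276 on the opposite strand.

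Pdgfrb, the receptor of PDGF-B on mural cells, was at 32.9, 31.1, 31.8, 35.3 and 32.1 CPM in Control d14 and between 27.1 and 31.7 CPM in ExpOF d14 (median 28.4). All but 1 of the ExpOF d14 libraries lay below the lowest control library. Control d14 averaged 32.6 ± 1.6 CPM (SD, n = 5), and ExpOF d14 averaged 29.0 ± 1.83 CPM (SD, n = 6). The log2 difference of -0.17 has no test. Control d14+3 mice had 32.3 ± 3.55 CPM and ExpOF d14+3 mice 30.4 ± 3.22 CPM (SD, n = 6 each), and the ranges from 25.7 to 35.8 and from 26.2 to 33.9 CPM overlapped almost fully. The d14+3 log2 fold change was -0.08 with a 95% interval from -0.24 to 0.07 (edgeR, adjusted p = 0.791). Anpep, the aminopeptidase N found on pericytes, had a mean of 3.44 ± 0.734 CPM (SD, n = 5) in Control d14 and 3.14 ± 0.51 CPM (SD, n = 6) in ExpOF d14. On d14+3 it had 3.03 ± 0.491 CPM in control and 3.21 ± 0.433 CPM in ExpOF mice (SD, n = 6 each), a log2 fold change of 0.08 with a 95% interval from -0.22 to 0.37 (edgeR, adjusted p = 0.882). Anpep lies on chromosome 7 from 79821803 to 79861059 on the minus strand, over Gm44974 but with 0 shared exon bases.

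**Figure D1:**
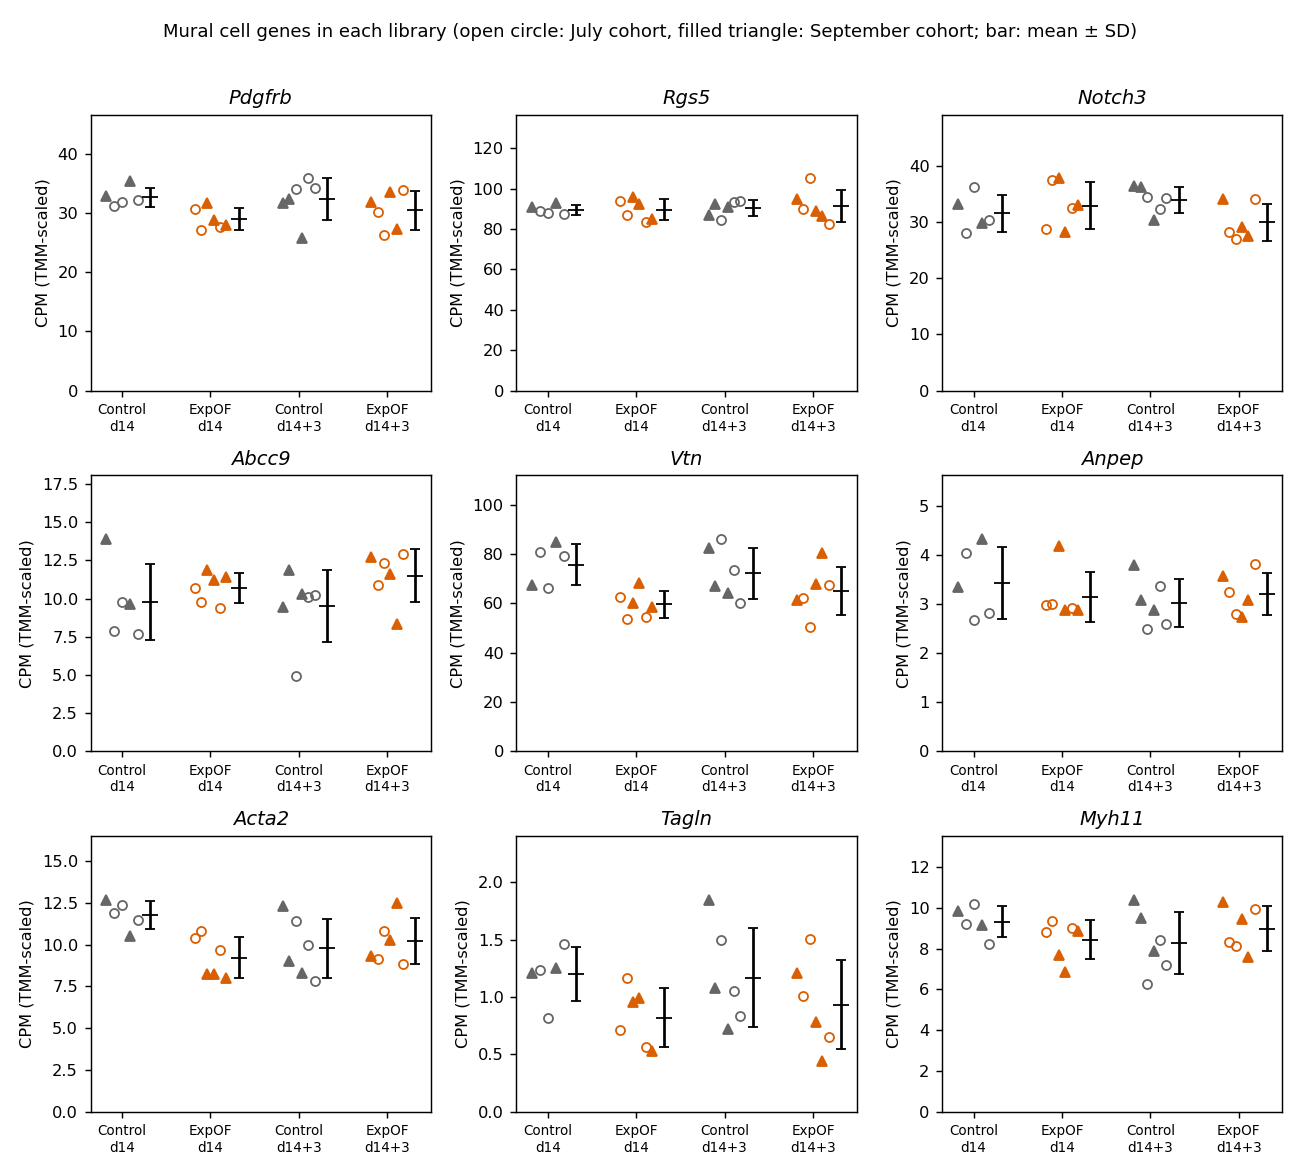
CPM after TMM scaling (y axis, starting at 0) of the 9 genes in each of 23 libraries, by group; open circles are July and filled triangles September mice, and the bars give the mean ± SD. Rgs5 stays between 82.3 and 105 CPM in every group, whereas Vtn, Acta2 and Pdgfrb are lower in most ExpOF d14 libraries than in Control d14 and overlap on d14+3.

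Of the 9 genes, 6 had a d14 log2 difference under 0 and 3, Rgs5, Notch3 and Abcc9, did not, so the selection on the mean does not hold gene by gene. The gene just inside that limit was Anpep at -0.12 and the gene just outside it Rgs5 at 0.003. Among all genes tested, 53.4% were under 0 on d14, and the median was -0.151 over the 9 genes and -0.02 over all genes. The CPM ranges of the 2 d14 groups did not overlap for 2.5% of all genes and for 0 of the 9. These d14 values were used in the selection, so they are given as a description and no conclusion rests on them. With all 24 libraries the d14 differences were -0.87 for Tagln, -0.48 for Vtn, -0.41 for Acta2, -0.23 for Anpep, -0.13 for Pdgfrb, -0.10 for Myh11, 0.06 for Rgs5, 0.17 for Notch3 and 0.275 for Abcc9.

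The d14+3 libraries were not used in the selection. There, 4 of the 9 genes (Pdgfrb, Notch3, Vtn and Tagln) had a log2 fold change under 0, against 47.9% of all genes, and the medians were 0.016 and 0.007. None of the 9 was called by edgeR at an adjusted p under 0.05, and neither was any other gene (0% of 18992). At an unadjusted p under 0.05 edgeR gave 1 of the 9 (Notch3), against 7.11% of all genes. DESeq2 called 0.245% of 17135 genes and 0 of the 9. The ranges did not overlap for 0.421% of all genes and for 0 of the 9. The 95% intervals, each for a single gene and with the spread estimated over all 23 libraries, show what this comparison could miss. As fold changes, the interval of Rgs5 ran from 0.936 to 1.09 and that of Tagln from 0.55 to 1.17.

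Within cohorts, the d14+3 differences of 5 members changed sign. Pdgfrb was at -0.21 in July and 0.04 in September, Anpep at 0.22 and -0.06, Myh11 at 0.27 and -0.02, Rgs5 at 0.03 and -0.006, and Acta2 at -0.02 and 0.11. Abcc9 was at 0.52 in July and 0.04 in September. The difference of the d14+3 effect between cohorts was called for none of the 9 genes and 0% of all genes at an adjusted p under 0.05, and at an unadjusted p under 0.05 for 0 of the 9 and 3.39% of all genes. Its smallest unadjusted p among the 9 was 0.0922 for Pdgfrb (edgeR, adjusted p = 0.985).

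**Figure D2:**
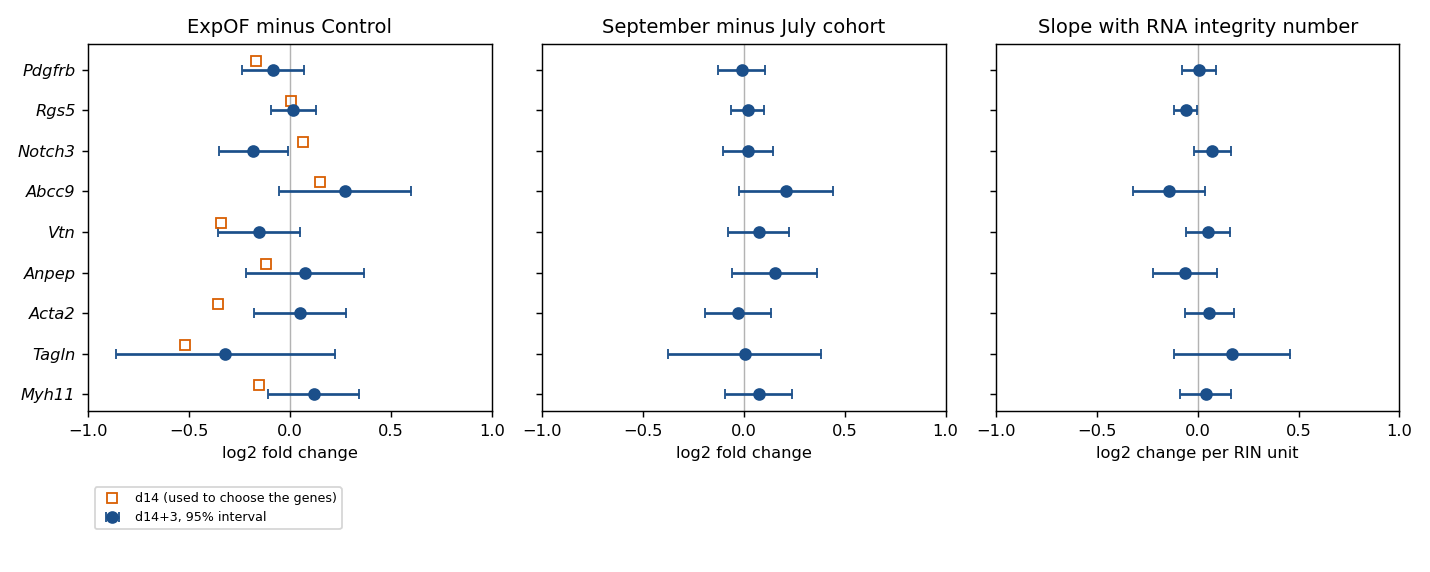
Log2 fold changes of the 9 genes (x axis) for ExpOF over control at d14+3 with 95% intervals (filled points) and at d14 (open squares, used in the selection, no interval), for the September over the July cohort, and log2 change per RIN unit. Every d14+3 interval except that of Notch3 (-0.35 to -0.01) includes 0.

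Between cohorts, the members differed little. The largest September minus July difference was 0.21 for Abcc9, with a 95% interval from -0.02 to 0.44, and the next was 0.154 for Anpep. The other 7 lay between -0.03 and 0.075. For this comparison edgeR called 0% of genes at an adjusted p under 0.05 and 4.28% at an unadjusted p, with 0 of the 9 in either, and DESeq2 called 0%. Other genes of the vessel wall and the meninges are given beside them. Over all tested genes, 53.1% were lower in September. All 10 vascular basement membrane genes and all 11 fibroblast markers were higher in September, 7 and 8 of them at an unadjusted p under 0.05, with median differences of 0.18 and 0.58, but none passed adjustment. Of 15 endothelial markers 14 were higher in September, 4 of them at an unadjusted p under 0.05, and none passed adjustment. Also higher in September were 8 of 10 other pericyte markers, 7 of 9 other smooth muscle markers tested and 7 of the 9 members. The medians of these 3 lists were 0.047, 0.159 and 0.022.

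The slope on RIN within groups was steepest for Tagln at 0.17 per unit (95% interval -0.115 to 0.46) and Abcc9 at -0.14 (-0.32 to 0.04). Without Control d14+3 replicate 3 the slope of Abcc9 was -0.036. With cohort and extraction round as covariates, Tagln was at 0.064 per unit and no longer the steepest, and Abcc9 was at -0.16. Rgs5 had a slope of -0.06 per unit (edgeR quasi-likelihood test, unadjusted p = 0.0454, adjusted p = 0.715), the only unadjusted p under 0.05 among the members. Across all genes edgeR called 0% at an adjusted p under 0.05 and 6.42% at an unadjusted p, and DESeq2 called 0.0179% of 16768 genes and 0 of the 9. With RIN as a covariate, the d14+3 log2 fold change of Abcc9 went from 0.27 to 0.40 (adjusted p = 0.348) and that of Notch3 from -0.18 to -0.24 (adjusted p = 0.289), and neither was called.

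The d14 differences of the members, given here as a description, lay in part along gene length in the count file. The 3 shortest genes, Tagln (1988 bases), Vtn (2030) and Acta2 (2196), had the 3 lowest values, and the 2 longest, Notch3 (8089) and Abcc9 (8373), had the 2 highest. The 4 genes between them did not follow length: Anpep (4135 bases) was at -0.12, Rgs5 (4546) at 0.003, Pdgfrb (5478) at -0.17 and Myh11 (7599) at -0.15. Over all tested genes the d14 median was -0.17 for the 5678 genes under 2.5 kb, of which 71.4% were under 0, -0.03 for the 9641 genes from 2.5 to 7 kb, and 0.14 for the 3673 longer ones, of which 20.5% were under 0. On d14+3 these medians were -0.05, 0 and 0.06. With each library's trend with length removed, the d14 values became -0.41 for Tagln, -0.23 for Vtn, -0.26 for Acta2, -0.10 for Anpep, 0.007 for Rgs5, -0.20 for Pdgfrb, -0.24 for Myh11, -0.04 for Notch3 and 0.05 for Abcc9. The length classes and this correction were chosen after the data were seen.

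Control d14 replicate 4, the library left out, stood apart from the others in most of the members. On a scale common to all 24 libraries it had the highest level of any library for Vtn (125 CPM), Anpep (5.51 CPM), Acta2 (15.3 CPM) and Tagln (3.84 CPM). It had the lowest level of any library for Rgs5 (73.0 CPM), Notch3 (18.8 CPM) and Abcc9 (4.36 CPM). Pdgfrb at 29.2 CPM and Myh11 at 7.58 CPM lay within the range of the other 23. Over all tested genes its log2 difference from the other Control d14 libraries had a median of 0.55 under 2.5 kb, -0.05 from 2.5 to 7 kb and -0.585 above.

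**Figure D3:**
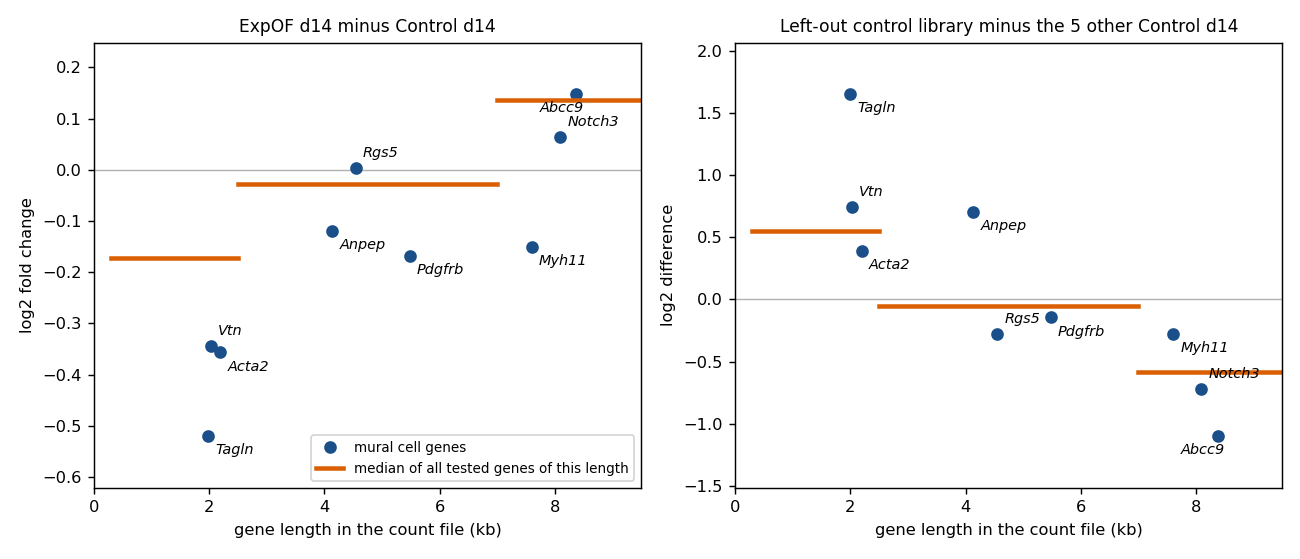
Log2 difference (y axis) against gene length in kb (x axis) for the 9 genes (points), with the median of all tested genes in 3 length classes (lines), for ExpOF d14 minus Control d14 (left) and for the left-out control library minus the 5 other Control d14 libraries (right). On the left Tagln, Vtn and Acta2 sit at -0.52 to -0.34 and Abcc9 at 0.15, and on the right Tagln is at 1.65 and Abcc9 at -1.10; the y axes differ in range.

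The 9 genes did not vary as 1 unit among libraries of the same group. After the group means were subtracted from log2 CPM, the 36 pairs had a median Pearson r of 0.105 over 23 libraries, with 23 pairs above and 12 below 0. The highest were Abcc9 with Myh11 at 0.53 and Notch3 with Myh11 at 0.50, and the lowest was Abcc9 with Vtn at -0.54. By Spearman rank correlation these 3 pairs were at 0.364, 0.548 and -0.508. Control d14+3 replicate 3 was the lowest library for both Abcc9 (4.95 CPM) and Myh11 (6.24 CPM). Pdgfrb and Rgs5, both pericyte markers, had a Pearson r of -0.06 but a Spearman value of 0.22. Acta2 and Myh11, both contractile genes, had 0.11 in both. These correlations share library depth and length effects and are given as a description.

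**Figure D4:**
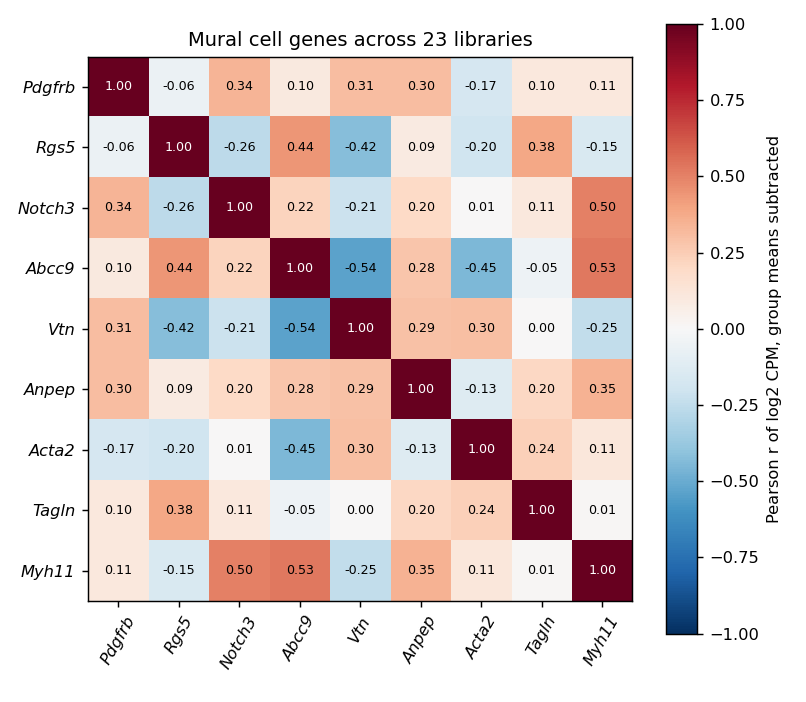
Pearson r between the 9 genes over 23 libraries, computed on log2 CPM with the group mean subtracted (color scale from -1 to 1). Most cells are pale, and the strongest values off the diagonal are 0.53 for Abcc9 with Myh11 and -0.54 for Abcc9 with Vtn.

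Among 14151 other genes with a mean of at least 50 counts, those most like Vtn in the same measure were Gpx1 (r = 0.93) and Mpv17l2 (r = 0.925), those most like Abcc9 were Lrrk2 and Usp33 (both 0.91) and a gene most like Notch3 was Plec (0.90). For Rgs5 they were Itgam (0.83) and Eya4 (0.82), for Tagln Mmp23 (0.83) and Gm45605 (0.71), and for Acta2 Rasa4 and Lrrc45 (both 0.78). For Myh11 they were Tbc1d2b (0.77) and Lamc1 (0.74), for Anpep Vsir (0.77) and Hspg2 (0.745), and for Pdgfrb Mettl13 (0.74) and Heyl (0.73). These are the highest of 14151 candidates, a choice that by itself raises r. Leaving out the 2 libraries farthest from each member's median, r was 0.59 for Mettl13 and 0.54 for Heyl, the lowest. It was 0.91 for Plec and 0.92 for Gpx1.

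Further genes of the same cells and pathways were read from lists, as a description. Beside the counts of lower genes, 47.9% of all tested genes were lower on d14+3 and 53.4% on d14. On d14 that share was 71.4% for genes under 2.5 kb and 20.5% for those above 7 kb. The d14 contrast was used in the selection, so d14 counts of related genes are no separate evidence. Of 10 other pericyte markers, 7 were lower on d14+3 (median -0.04) and 8 on d14 (median -0.28), with none called on d14+3. Mcam, a mural adhesion molecule, was at 42.7 ± 5.79 CPM in Control d14+3 and 37.1 ± 4.07 CPM in ExpOF d14+3 (SD, n = 6 each), a log2 difference of -0.21 (edgeR, unadjusted p = 0.0227, adjusted p = 0.613), and Foxf2, a pericyte transcription factor, was at 0.145 (adjusted p = 0.8). Of 9 other smooth muscle markers tested, 8 were lower on d14+3 (median -0.055) and 7 on d14 (median -0.24). Smtn, smoothelin, was at -0.20 (adjusted p = 0.768) and Tpm2, a tropomyosin, at -0.02 (adjusted p = 0.981). Lmod1, leiomodin, named after its values were seen, was the 1 gene of this list at an unadjusted p under 0.05, and its log2 difference of 0.39 (95% interval 0.045 to 0.74) was positive (edgeR, unadjusted p = 0.0283, adjusted p = 0.65). Actg2, the remaining one, had 0 counts in up to 3 libraries and was not tested.

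The signaling partners of the receptors were also without a call on d14+3, where 47.9% of all tested genes were lower. Of 9 PDGF, Notch, TGF-β and angiopoietin ligands 6 were lower, with Tgfb1 at -0.23 and Angpt1 at 0.11, and of 10 receptors 5 were lower, with Acvrl1 at -0.085 and Notch1 at 0.16. Of 5 Notch target genes 4 were lower, with a median of -0.14 on d14+3 and -0.27 on d14, and Nrarp, a feedback inhibitor of Notch, was at -0.21 (adjusted p = 0.783) and Hey2 at 0.015. Serum response factor and its cofactors drive contractile genes: Mrtfb was at 0.13 and Mrtfa at -0.02, and Myocd had 0 counts in up to 2 libraries and was not tested. Among the KATP partners of SUR2, Kcnj8, which encodes Kir6.1, was at -0.09 (adjusted p = 0.875) and Abcc8 at 0.06. Of 10 vascular basement membrane genes 6 were lower, with Hspg2, perlecan, at -0.37 (adjusted p = 0.774) and Lamb1 at 0.065.

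Markers of some other cell types were read in the same way, and their directions and summed levels are a description without a test. Beside their counts, 53.4% of all tested genes were lower on d14 and 47.9% on d14+3. The 11 fibroblast markers were all lower in ExpOF d14 (median -0.405), and their summed level was 348 to 704 CPM in Control d14 and 273 to 410 CPM in ExpOF d14. On d14+3, 10 of the 11 were lower (median -0.17), with 302 to 673 CPM in control and 325 to 475 CPM in ExpOF mice. Of 15 endothelial markers 11 were lower on d14, with sums of 505 to 646 CPM in Control d14 and 484 to 543 CPM in ExpOF d14. The 646 CPM was in Control d14 replicate 5, and the next highest Control d14 library was at 565 CPM. Replicate 5 was also the highest Control d14 library for Pdgfrb, Rgs5, Vtn and Anpep and the lowest for Acta2. Without it the d14 differences of Pdgfrb, Vtn and Anpep were -0.138, -0.299 and -0.019, against -0.168, -0.344 and -0.12 with it. On d14+3, 9 endothelial markers were lower, with sums of 507 to 583 CPM in control and 471 to 581 CPM in ExpOF mice. The 5 choroid plexus markers summed to 3030 CPM in Control d14 replicate 5 and to 1290 CPM in ExpOF d14+3 replicate 4. In the other libraries their sum was 35.1 to 41.3 CPM in Control d14, 33.4 to 39.3 CPM in ExpOF d14, 36.8 to 60.8 CPM in Control d14+3 and 33.7 to 59.8 CPM in ExpOF d14+3. No fibroblast, endothelial or choroid plexus marker was at 0 counts in any of the 23 libraries. Their part in the values of the 9 genes was not tested.

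On d14+3 the named genes of these other cell types gave no adjusted call either. The endothelial genes Vwf and Cldn5 were at 0.565 and -0.32 (edgeR, unadjusted p = 0.0435 and 0.0499, adjusted p = 0.701 and 0.702). The fibroblast genes Igfbp2 and Col3a1 were at 0.08 and -1.07, and the choroid plexus genes Ttr and Clic6 at 4.11 and 0.11. Without ExpOF d14+3 replicate 4, Ttr was at -0.343. The erythrocyte genes Hba-a2 and Hbb-bs were at -1.34 (unadjusted p = 0.0131, adjusted p = 0.55) and -0.16, and the striated muscle genes Myh6 and Acta1 at 0.71 (unadjusted p = 9.09e-04, adjusted p = 0.299) and -0.25. The 5 erythrocyte transcripts summed to 59.1 to 144 CPM in control and 40.2 to 126 CPM in ExpOF mice. Microglia, astrocyte, oligodendrocyte and neuron markers had d14+3 medians of 0.06, 0.025, -0.16 and -0.04, and their named genes lay between -0.17 (Cnp) and 0.09 (Csf1r).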

How the data were processed

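Poly-A selected hypothalamic RNA was sequenced from 24 mice. The authors aligned the paired reads to mm10 with STAR, counted them per GENCODE gene with featureCounts 1.6.4 and deposited raw counts without normalization, with 1 table for all libraries, whose positions and gene lengths were also used. The strand setting is not given in the sources used here. The library the study removed is not named in the labels and was identified from the study's mean expression values.

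In R 4.3.3, edgeR 4.0.16 (TMM, filterByExpr with a minimum count of 10 and total of 15, robust quasi-likelihood F-test) was fitted over 4 groups and 23 libraries, with p-values adjusted by Benjamini-Hochberg over 18992 genes at a threshold of 0.05. Cohort was fitted with group and extraction round, and the RIN slope with group. DESeq2 1.42.0 was an alternative. Log2 CPM used a prior count of 2. The tests were tried on simulated data. The members and gene lists were chosen with earlier results of these data known. All 9 members were named, as were, per list, the genes with the highest and lowest d14+3 change among those with a mean of at least 50 counts, and the 2 genes most like each member, of which 1 is not reported here. Each mouse gave 1 library.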

Additional observations from a re-analysis of the deposited data

Results flagged for a closer look

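Among 36 sets of 1 gene in 1 group, 2 held a library set apart from the rest by Dixon's test, which chance alone gives in about 1 of 20 sets. Abcc9 was at 4.95 CPM in Control d14+3 replicate 3, with the nearest library at 9.44 and the highest at 11.9 CPM. Anpep was at 4.18 CPM in ExpOF d14 replicate 3, with the other 5 libraries between 2.88 and 3.00 CPM.

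The left-out library, Control d14 replicate 4, exceeded the highest other Control d14 library for Vtn (125 against 85.4 CPM), Anpep (5.51 against 4.36 CPM), Acta2 (15.3 against 12.6 CPM) and Tagln (3.84 against 1.44 CPM).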

How the results depend on the processing

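No member was called in any alternative tried, including DESeq2, other filters, all 24 libraries, each cohort alone, covariates and each library left out. On d14+3, 102 of 107 member values kept their sign under other settings and 104 of 108 with a library left out. On d14 all 107 and all 99 moved by less than the SD between libraries. That limit is wide, and leaving out 1 library could hardly pass it, so these d14 counts say little about stability. Within it, under other settings, Tagln ran from -0.868 to -0.41 and Acta2 from -0.505 to -0.208. Over all genes, the d14+3 count of 0 became 42 with DESeq2 and 26 with RIN as a covariate. The cohort count of 0 became 236 with the filter of at least 1 count and ran from 0 to 1 with a library left out, the 1 call coming without ExpOF d14+3 replicate 6, and the RIN count became 3 with DESeq2. The cause was not tested. Depth limits Tagln and Anpep most.

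Signs changed as follows. On d14, given without a test, Abcc9 was -0.031 and Rgs5 -0.016 in the September cohort alone, Rgs5 was -0.003 with at least 10 counts in every library and -0.002 with only the 2 groups compared, Notch3 was -0.042 with the length trend removed, and Rgs5 ran from -0.027 to 0.018 with a library left out. For cohort, Notch3 was -0.017 and Acta2 0.009 with all 24 libraries, and Tagln -0.048 without extraction round. In the July cohort alone, d14+3 values were -0.02 for Acta2, -0.028 for Foxf2, 0.174 for Tpm2, 0.013 for Acvrl1, -0.088 for Hey2, 0.056 for Hspg2, -0.31 for Igfbp2 and -0.032 for Clic6. In the September cohort alone they were 0.043 for Pdgfrb, -0.006 for Rgs5, -0.063 for Anpep, -0.022 for Myh11, 0.255 for Hbb-bs and -0.025 for Syt1. Abcc8 was -0.003 with RIN as a covariate, and Igfbp2 -0.07 with cohort and extraction round. With the length trend removed, a correction chosen after seeing the data, Tpm2 was 0.019, P2ry12 0.005 and Syt1 -0.012.

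With single libraries left out, d14+3 values ran from -0.03 to 0.044 for Rgs5, -0.013 to 0.128 for Acta2, -0.125 to 0.121 for Tpm2, -0.041 to 0.073 for Hey2, -0.052 to 0.006 for Mrtfa, -0.181 to 0.001 for Kcnj8, -2.66 to 0.111 for Col3a1, -0.357 to 0.036 for Hbb-bs, -0.105 to 0.002 for P2ry12, -0.182 to 0.258 for Igfbp2, -0.343 to 4.604 for Ttr, -0.029 to 0.153 for Clic6 and -0.004 to 0.058 for Syt1. The lowest Ttr value came without ExpOF d14+3 replicate 4. Cohort values ran from -0.087 to 0.105 for Tagln and -0.03 to 0.023 for Pdgfrb, and RIN slopes from -0.019 to 0.044 for Pdgfrb.

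The replicate numbers did not pair the samples: libraries with the same number had correlations of their deviations from -0.21 to 0.223 on d14+3 and from -0.153 to -0.024 on d14. With the replicate number as a block, 0 genes were called on d14+3, as without it, the median d14 difference of the 9 genes was -0.143, Rgs5 on d14 was -0.001, and Igfbp2 on d14+3 was -0.081.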
